A study of Mus musculus with 32 samples.

Results

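The comparison described here is that of mouse embryonic stem cells treated with actinomycin D against untreated cells, taken from RADICL-seq, a method that ligates RNA to nearby DNA in crosslinked nuclei so that 1 sequenced molecule reports a stretch of RNA and the DNA it touched (the RNA tag and the DNA tag). All listed interactions of the 3 libraries named mESC 1FA and the 2 libraries named mESC ActD4 were used, which are 10 of the 32 samples and 5 of the 15 libraries, since RNA and DNA tags of a library were entered as separate samples. Both groups are the male stem cell line R08 with no change of genotype, fixed with 1% formaldehyde, and the mESC ActD4 cells had received actinomycin D at 5 µg/ml for 4 hours before fixation. Replicates were batches of cells of the same line at different passage numbers, and all of them stand for 1 line.

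Actinomycin D intercalates into DNA and stops RNA polymerases from moving along the template, RNA polymerase I at the lowest concentrations and RNA polymerases II and III at higher ones. Introns are cut out of pre-mRNA while it is being made or soon after, and exons are kept in the mature mRNA, which leaves for the cytoplasm. Small noncoding RNAs such as small nucleolar RNAs (snoRNAs), which guide the modification and cleavage of other RNAs in the nucleolus, are short, stable and kept in the nucleus.

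The libraries differed in size, with between 2441619 and 2832717 listed interactions in the 3 untreated and 418781 and 251802 in the 2 treated libraries. A pair of a transcript and a 25-kb DNA bin is listed only if it passed the authors' binomial test on pooled replicates, so the lists depend on the pooled number of interactions. That of mESC ActD4 contained 41314 pairs against 289205 in mESC 1FA, and 95.4% of its pairs were also listed in mESC 1FA, whereas 13.6% of the mESC 1FA pairs were listed in mESC ActD4. Levels below are CPM, the interactions of a transcript relative to all listed interactions of its library, so a higher level is a larger share of what was listed and not a larger amount of RNA, and fewer listed pairs cannot be told apart from less RNA per cell. Of 15 stem cell markers 14 were listed, with a summed share of 0.246% to 0.30% of the interactions in mESC 1FA and 0.194% and 0.197% in mESC ActD4. Of 13 primitive endoderm markers 10 were listed, at 0.0817%, 0.184% and 0.190% in the 3 mESC 1FA libraries and 0.0850% in both mESC ActD4 libraries. Markers of neural, mesodermal, trophoblast and fibroblast cells were nearly absent, with 4, 2, 1 and 3 members listed. The part of the endoderm markers in the results was not tested.

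Snord118 and Rnu3a, the largest rises among called transcripts that averaged 100 interactions or more in the 5 libraries, are shown first with their sequences, because their RNA tags fell on the same bases, or nearly so, in both groups. The sequences are from GENCODE M21 positions on the GRCm38 genome, with the C box (TGATGA) and the D box (CTGA), motifs of this RNA class, in capitals. Snord118 is U8, which acts in the processing of the large ribosomal subunit RNA (chr11:69073427-69073561, plus strand) and Rnu3a is a copy of U3, which acts in the first cleavages of the ribosomal precursor RNA (chr10:40258467-40258679, plus strand).
Snord118: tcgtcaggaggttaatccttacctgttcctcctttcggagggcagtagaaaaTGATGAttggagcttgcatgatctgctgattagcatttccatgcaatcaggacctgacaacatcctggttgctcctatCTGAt
Rnu3a: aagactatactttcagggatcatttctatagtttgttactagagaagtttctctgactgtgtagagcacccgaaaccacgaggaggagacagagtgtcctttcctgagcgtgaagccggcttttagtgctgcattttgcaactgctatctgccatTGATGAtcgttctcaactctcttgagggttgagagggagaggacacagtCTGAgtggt

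The most frequent centre of the Snord118 tags was base 122 of its 135 bases in all 5 libraries, with 50.5% to 51.9% of the tags on that base. For Rnu3a it was base 198 or 200 of 213 bases. In both RNAs these centres lie between the C box and the D box and near the last bases of the molecule, and no library stood apart in this. Mature and precursor molecules of these RNAs cannot be told apart from the tags.

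Snord118 was measured at 1031, 2369 and 1174 CPM in mESC 1FA and at 19617 and 22597 CPM in mESC ActD4. The groups were far apart, and the difference of 3.89 ± 0.32 (SE) on the log2 scale passed the test (limma with Benjamini-Hochberg adjustment, adjusted p = 2.66e-05). Rnu3a rose from 273, 220 and 155 CPM to 1633 and 1898 CPM, by 3.06 ± 0.22 (limma adjusted p = 1.2e-05). U3 is encoded by several near-identical copies, and only uniquely mapped tags were kept, so the value of Rnu3a leaves out tags shared with other copies. Rmrp, the RNA of the ribonuclease MRP that cuts the ribosomal precursor RNA, was measured at 304, 436 and 270 CPM and at 1705 and 1775 CPM, a rise of 2.40 ± 0.19 (limma adjusted p = 2.21e-05). Scarna2, a Cajal body RNA that guides modification of spliceosomal RNAs, had 18, 8 and 5 interactions in the large mESC 1FA libraries and 42 and 44 in the small mESC ActD4 libraries, which corresponds to 7.07, 3.30 and 1.84 CPM against 94.2 and 169 CPM. Scarna2 passed the filter for low counts only with the help of mESC ActD4, where it was high. It could thus hardly be tested as a fall. Each of these RNAs was higher in both treated libraries than in every untreated library. Among the pairs listed in both groups the rise of Snord118 was 0.48 on the log2 scale and no longer passed the test (limma adjusted p = 0.0549), whereas those of the other named RNAs did.

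Over all transcripts, 6012 of 9896 tested were called (60.8%), 1918 as higher (19.4%) and 4094 as lower (41.4%) in mESC ActD4, and the median log2 change was -0.31. Scaling by the library totals in place of trimmed means moved that median to -0.20. Of the transcripts tested 2082 were at 0 in both treated libraries and passed the filter through mESC 1FA alone, so they could only fall. The 41.4% lower includes them, also where it stands beside a gene list below. Transcripts rare in mESC 1FA could likewise pass the filter through mESC ActD4 alone. Against this background, 74 of the 114 snoRNAs and Cajal body RNAs tested rose and 18, which were at 0 in mESC ActD4, fell, with a median of 1.43, and 67 of the 177 that were listed at all were at 0 in mESC ActD4. Of all transcripts listed in mESC 1FA, 8377 of 14248 were also listed in mESC ActD4. Snord49a, a methylation guide hosted in an intron, rose from 39.7, 32.6 and 22.4 CPM to 114 and 115 CPM. Together the snoRNAs made up 0.310%, 0.456% and 0.247% of the interactions in mESC 1FA and 2.75% and 3.09% in mESC ActD4, without overlap, and most of the latter was Snord118. Without the 10 most captured transcripts the share was 0.210% and then 0.800%, and in pairs listed in both groups 0.492% and 0.782%. An exact two-sided permutation test over 3 and 2 libraries cannot go below p = 0.2, which is the p of this share and of every non-overlapping share below (0.208 after adjustment over 76 shares). Among pairs listed in both groups 20 of 95 rose and 2 fell, with a median of 0.48. In that comparison 22.4% of 7142 transcripts were called, 9.28% as higher and 13.1% as lower.

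The number of DNA bins contacted did not move in 1 direction for the small RNAs. Snord118 was listed with 401, 443 and 438 DNA bins in mESC 1FA and with 985 and 980 in mESC ActD4. The share of its interactions on other chromosomes (trans) was 92.4%, 92.0% and 92.2% and then 85.2% and 84.9%. Rnu3a contacted 23, 22 and 22 bins on 14 chromosomes and then 71 bins on 8 chromosomes in both treated libraries. Snord118 and Rnu3a thus had more bins in the shorter lists, whereas Rmrp had fewer, with 116, 115 and 114 and then 89 and 88. Among all trans interactions, Snord118 supplied 2.26% ± 0.837 (SD, n = 3) in mESC 1FA and 21.7% ± 0.676 (SD, n = 2) in mESC ActD4, while the share of Malat1, a nuclear speckle RNA, was 29.2% ± 11.5 and then 16% ± 0.0602. For Malat1 mESC 1FA replicate 1 stood apart, with 42.4% against 22.4% and 22.8% in the other replicates.

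Of a list of RNA polymerase III transcripts, which leaves out Rmrp, 4 were listed, and 2 of these were at 0 in mESC ActD4 and not tested. Rn7sk and Rny3 were tested and both rose (19.4% of all transcripts did). Rn7sk, which holds the elongation factor P-TEFb inactive, had 26, 64 and 39 interactions in mESC 1FA and 168 and 86 in mESC ActD4, or 10.2, 26.4 and 14.3 CPM against 377 and 330 CPM (4.46 ± 0.37, limma adjusted p = 2.54e-05). The Y RNA Rny3 had 6, 23 and 6 interactions and then 11 and 6 (2.59 ± 0.60, limma adjusted p = 0.00762), and its call was lost without mESC 1FA replicate 1 (2.27, limma adjusted p = 0.0539) and without replicate 3 of that group (2.24, limma adjusted p = 0.0542). Rny3 passed the filter only with the help of mESC ActD4 replicate 1. Gm22973, annotated as a small nuclear RNA and the most captured transcript of all, was at 29030, 46760 and 40833 CPM and at 41671 and 44694 CPM. Its groups overlapped (0.18 ± 0.18, limma adjusted p = 0.428), as did the share of all small nuclear RNA (3.78% ± 0.942 and 4.53% ± 0.131, exact permutation p = 0.6). It was called as higher in the pairs listed in both groups (0.97, limma adjusted p = 7.42e-05), with each pair counted once (0.64, limma adjusted p = 6.19e-08) and without contacts with its own gene (1.10, limma adjusted p = 0.0175). The mitochondrial ribosomal RNA mt-Rnr1 was at 326, 50.4 and 82.4 CPM and then at 873 and 780 CPM (2.89 ± 0.68, limma adjusted p = 0.00817). This call was lost without mESC 1FA replicate 3 (2.69, limma adjusted p = 0.0673) and at equal pooled numbers (2.03, limma adjusted p = 0.0692). The change was 1.43 in pairs listed in both groups and 3.67 without mESC 1FA replicate 1, whose mitochondrial tags were the most frequent of the untreated libraries.

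Within protein-coding transcripts the RNA tags moved from introns to exons and from gene bodies to gene starts. Introns held 85.5%, 87.3% and 87.4% of the protein-coding tags in mESC 1FA and 78.1% and 77.6% in mESC ActD4. The coding sequence (CDS) held 7.04%, 5.26% and 5.41% and then 12.5% and 12.9%. The 5′ untranslated region (UTR) held 1.45%, 1.08% and 1.13% and then 3.49% and 3.56%, whereas the 3′ UTR share was smaller after treatment, with 3.25%, 3.52% and 3.33% against 2.78% and 2.75%. None of these 4 shares overlapped between the groups, and mESC 1FA replicate 1 lay nearest to the treated libraries in the CDS and 5′ UTR shares. Tags in SINE repeats, which lie mostly in introns, made up 4.87% ± 0.0951 (SD, n = 3) of the tags and then 3.95% ± 0.0582 (SD, n = 2), and those in LINE repeats 1.38% ± 0.114 and 0.918% ± 0.0286.

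**Figure D1:**
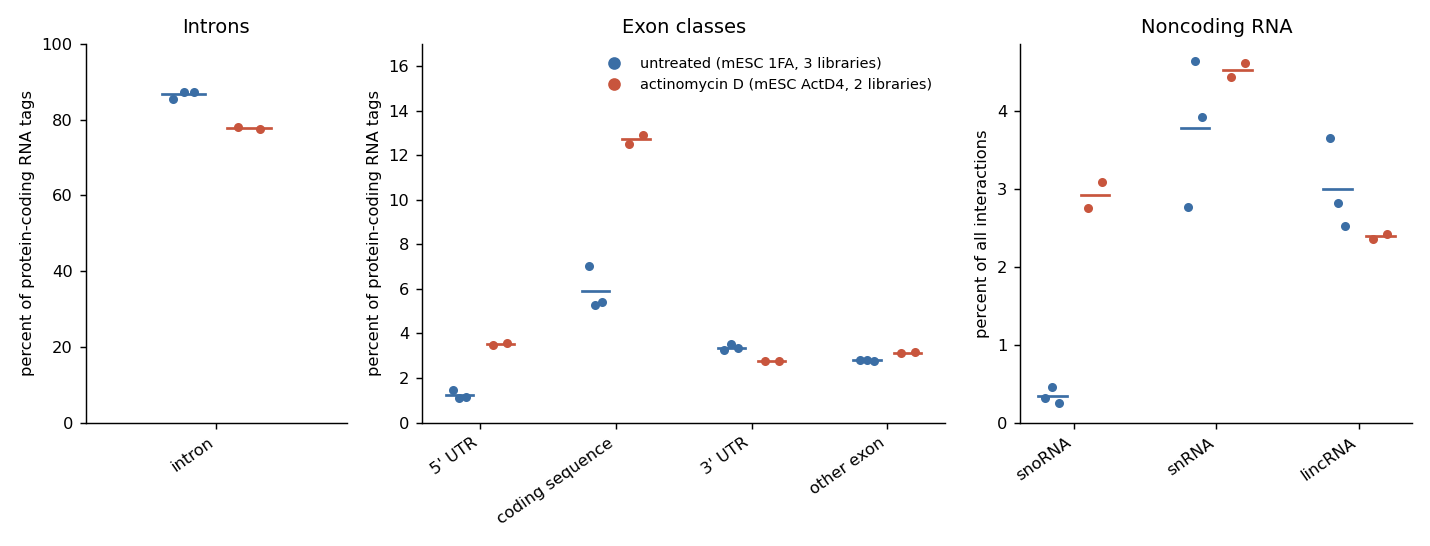
Share of RNA tags by library, in percent. Points are libraries (3 mESC 1FA, 2 mESC ActD4) and short lines are group means; the panels give intron and exon classes as percent of protein-coding tags and RNA classes as percent of all interactions. The CDS and 5′ UTR shares are higher in both mESC ActD4 libraries (12.5% and 12.9%, 3.49% and 3.56%) than in any mESC 1FA library, the intron share is lower, and the small nuclear RNA shares overlap.

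The shift to gene starts lay in the most upstream bases. In protein-coding genes of at least 10 kb, the first 1 kb held 3.39%, 2.47% and 2.55% of the tags in mESC 1FA and 9.58% and 9.74% in mESC ActD4. From 1 to 2 kb the shares were 2.04% ± 0.0404 (SD, n = 3) and 4.41% ± 0.00905 (SD, n = 2), and from 2 to 5 kb 5.32% ± 0.100 and 7.41% ± 0.0109. Between 5 and 10 kb the groups overlapped in sum (8.16% ± 0.138 and 8.18% ± 0.0408, exact permutation p = 1), with higher shares after treatment near 5 kb and lower ones near 10 kb, and beyond 10 kb the share was lower, at 81.7% ± 0.448 and 70.3% ± 0.149. The gain at the start was as large in restricted lists. The first 2 kb held 4.97% and 14% of the tags when only pairs listed in both groups were counted. At equal pooled numbers the shares were 4.49% and 14.1%. For that setting mESC 1FA interactions were drawn to the number in mESC ActD4, and pairs with fewer than 5 pooled interactions were then removed. That removal left the mESC ActD4 shares unchanged, so the lists were not matched in length. The gain was also present for contacts with DNA beyond 100 kb on the same chromosome, where the first 2 kb supplied 3.87% ± 0.523 and 8.92% ± 0.194 of the tags. Within the first 2 kb the tags were 67.9% ± 2.35 and 62.8% ± 0.0732 intronic.

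Along the whole gene the shares differed by gene length class. In genes of 10 to 50 kb the most upstream 10% of the gene held 13.0% ± 0.645 (SD, n = 3) of the tags in mESC 1FA and 31.7% ± 0.157 (SD, n = 2) in mESC ActD4, and the last 10% held 9.01% ± 0.157 and 5.91% ± 0.124. In genes over 200 kb the same shares were 16% ± 0.218 and 19% ± 0.237 for the most upstream part and 7.71% ± 0.113 and 7.11% ± 0.0690 for the last. Genes under 10 kb showed the largest loss downstream of their midpoint, from 48.7% ± 1.27 to 24.8% ± 0.232 of the tags. In genes over 200 kb the part downstream of the midpoint went from 45.3% ± 0.143 to 42.7% ± 0.132.

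**Figure D2:**
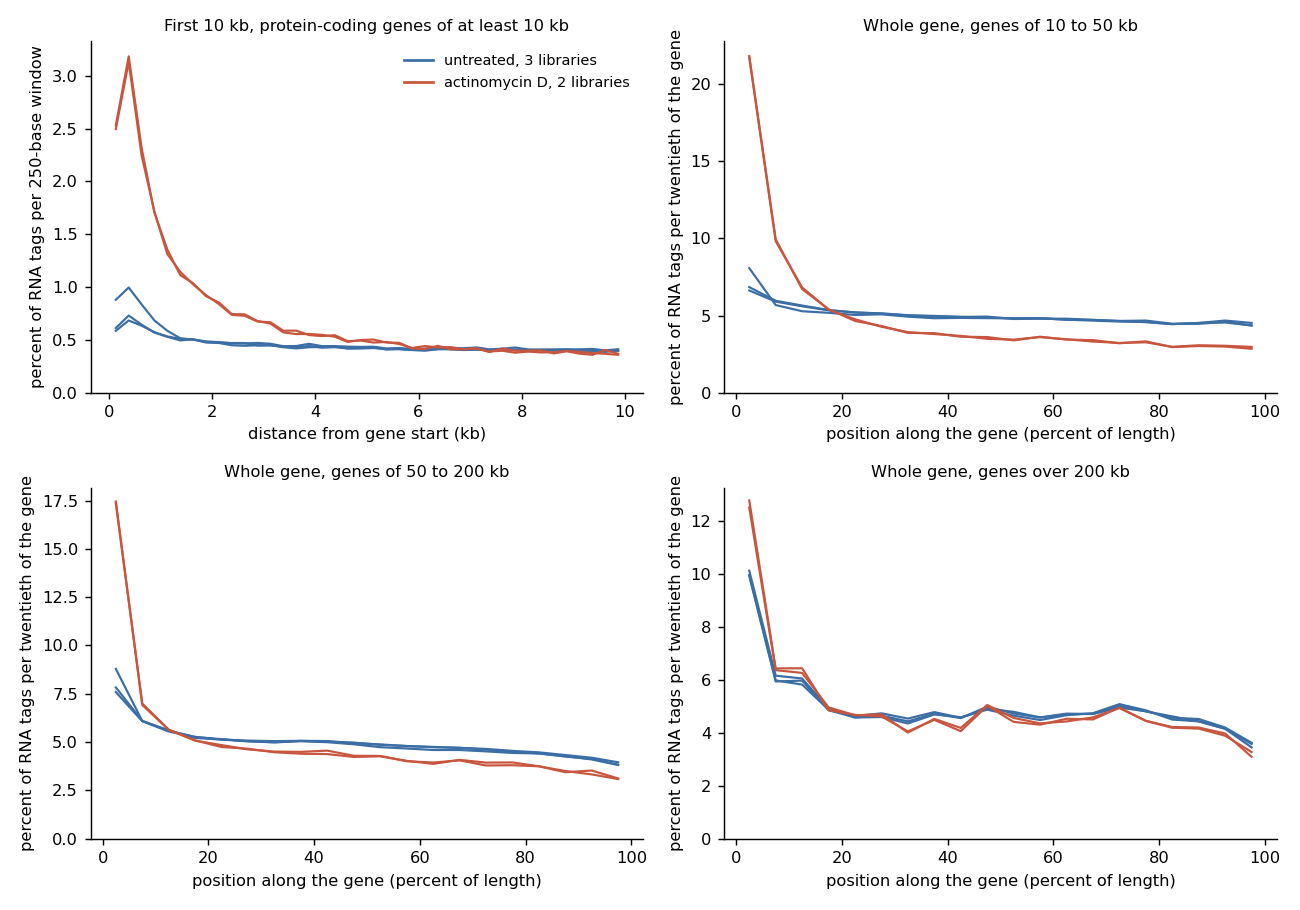
RNA tags along protein-coding genes, one line per library (mESC 1FA and mESC ActD4), in percent of the tags of the panel. The top left panel covers the first 10 kb in windows of 250 bases, and the others divide genes of 10 to 50, 50 to 200 and over 200 kb into 20 equal bins from start to end. Both mESC ActD4 libraries lie above all mESC 1FA libraries at the gene start and mostly, though not in every window, below them further downstream. The lines cross between 5 and 10 kb, and in the longest genes they lie closest together.

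The balance between the first 2 kb and the rest of each gene was then fitted gene by gene, as log2 of the ratio of the 2 tag numbers. Of 2285 transcripts tested 1902 were called (83.2%), of which 1893 rose (82.8%) and 9 fell (0.394%). The median change was 1.90 in genes of 10 to 50 kb (647 of 742 rose), 1.68 in genes of 50 to 200 kb (1036 of 1264) and 1.47 in genes over 200 kb (196 of 254). The share of tags in the first 2 kb went from a median of 9.33% to 28.0% in the shortest of these classes and from 1.70% to 4.43% in the longest. When the tags of every transcript were thinned to the same number in each library, 709 of 2114 rose (33.5%, limma) and 0 fell, and the median change was 1.71.

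Nsmce2, a SUMO ligase subunit of the SMC5/6 complex, had the largest rise of the genes with at least 100 tags in every library, with 0.426%, 0.640% and 0.372% of its tags in the first 2 kb in mESC 1FA and 7.47% and 7.22% in mESC ActD4 (4.05 ± 0.31, limma adjusted p = 8.82e-05). Cenpp, a centromere protein, followed the same pattern with 0.536%, 0.691% and 0.671% and then 6.10% and 11.4% (3.84 ± 0.35, limma adjusted p = 0.000166). Srbd1, an RNA-binding protein gene, went from 0.790%, 0.283% and 0.427% to 5.51% and 5.16% (3.61 ± 0.39). All 3 are long genes in which tags from the start were rare before treatment. Stx8, a syntaxin, had 0.460%, 0% and 0.303% and then 2.99% and 1.57% (6 of 201 and 2 of 127 tags), and its change of 3.85 was 4.58 without mESC 1FA replicate 1 and 2.67 without replicate 2 of that group. Eps15l1, an endocytic adaptor, had 0.394%, 0.0767% and 0% and then 1.27% and 0.676%, and its change of 3.35 was 4.27 without mESC 1FA replicate 1 and 2.46 without replicate 3 of that group. Dst, which encodes a cytoskeletal linker, was the only gene of this depth that fell, from 0.662%, 0.605% and 0.521% to 0.249% and 0.291% (-0.90 ± 0.25, limma adjusted p = 0.00702), and this call was lost without mESC ActD4 replicate 1 (limma adjusted p = 0.0538), with a window of 1 kb (-0.35) and under 5 other settings. The rise of Stx8 was not called at equal numbers per transcript (2.06, limma adjusted p = 0.0511) or with precision weights, and that of Eps15l1 not with precision weights.

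The promoter of Cenpp (chr13:49652682-49652981, minus strand) is printed from RefSeq on GRCm38.p6, from 250 bases before to 50 bases after the start, as an example of the genes with the largest rise of this balance. Capitals mark GGGCGG on either strand, the core of the binding motif of Sp1.
Cenpp promoter: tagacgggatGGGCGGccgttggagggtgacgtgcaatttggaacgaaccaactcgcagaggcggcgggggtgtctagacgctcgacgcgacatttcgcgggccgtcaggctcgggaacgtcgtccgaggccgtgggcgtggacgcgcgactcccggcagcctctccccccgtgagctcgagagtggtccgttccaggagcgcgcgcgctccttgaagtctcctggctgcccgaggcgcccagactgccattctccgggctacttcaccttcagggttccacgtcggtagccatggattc
This window and that of Stx8 held 1 match each, and that of Eps15l1 held 3. None of these 3 windows held TATAAA on either strand. Windows of Nsmce2 and Srbd1, which also had some of the largest rises, were not found and not counted, so the matches describe single genes. Over all 32851 promoters of the same length, 35.7% held GGGCGG and 13.6% held TATAAA on either strand.

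Genes of the transcription machinery showed the start shift clearly. Polr2a encodes the largest subunit of RNA polymerase II, and its tags in the first 2 kb made up 18.1%, 16.9% and 18.4% before and 46.2% and 50.0% after treatment (2.08 ± 0.34, limma adjusted p = 0.000462). For the elongation factor Supt6 the shares were 7.05%, 5.16% and 5.13% and then 32.2% and 32.7% (2.96 ± 0.37). Aff4, the scaffold of the super elongation complex, went from 7.70%, 7.03% and 7.47% to 33.3% and 27.9%. In total 14 of 15 tested genes of transcription elongation and termination rose in this balance, with a median share of 8.29% before and 30.6% after. Of the splicing regulators 28 of 30 rose, and Celf1, which binds GU-rich RNA, went from 8.01%, 4.37% and 4.88% to 22.7% and 25.2%. All 7 pluripotency regulators tested rose, among them Tfcp2l1 (3.94%, 4.76% and 4.90%, then 13.8% and 11.5%), and so did all 4 p53 target genes tested, among them Aen, a nuclease (7.04%, 12.6% and 14.6%, then 39.7% and 56.8%). Of the Polycomb and DNA methylation genes 8 of 12 rose, and Tet1, which oxidises methylated cytosine, went from 0.348%, 0.412% and 0.290% to 2.33% and 1.99%. The long noncoding RNA Pvt1 went from 1.24%, 1.30% and 1.21% to 4.52% and 4.93%, while its total level, at 3642 to 4894 CPM and then 3421 and 3354 CPM, was not called (-0.32 ± 0.12, limma adjusted p = 0.0541). That level was called as lower in pairs listed in both groups (limma adjusted p = 0.0259), at equal pooled numbers (-0.61, limma adjusted p = 0.0187), without mESC 1FA replicate 1 (-0.44, limma adjusted p = 0.0106) and under 4 other settings. Exoc4, the gene of an exocyst subunit, showed the same with 0.352%, 0.235% and 0.287% and then 1.30% and 1.10% of its tags at the start and an uncalled level (-0.10 ± 0.11, limma adjusted p = 0.460), which was called as lower in pairs listed in both groups (-0.50, limma adjusted p = 0.00244) and at equal pooled numbers (-0.53, limma adjusted p = 0.0457) and as higher with each pair counted once (0.18). The lists share genes with high capture, and 82.8% of all genes tested rose, so none of these shares sets a list apart. At equal pooled numbers the start balances of Celf1, Tfcp2l1 and Tet1 were not called (2.81, 2.47 and 2.12, limma adjusted p = 0.0868, 0.0537 and 0.0720).

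Downstream of the gene midpoint the tags became fewer in 1222 of 2461 transcripts tested (49.7%) and more frequent in 61 (2.48%), together 52.1%, as measured by log2 of the ratio of tags downstream to tags upstream of the midpoint. The median change was -1.58 in genes under 10 kb (31 of 37 fell), -0.87 in genes of 10 to 50 kb (441 of 762), -0.49 in genes of 50 to 200 kb (613 of 1327) and -0.30 in genes over 200 kb (118 of 291). Klf13, a zinc finger factor, had 33.9%, 34.4% and 36.4% of its tags downstream in mESC 1FA and 17.2% and 11.8% in mESC ActD4 (-1.65 ± 0.18, limma adjusted p = 0.000684). The elongation factor Ell went from 40.6%, 31.7% and 37.6% to 15.5% and 19.5%, and Kazn, a cell junction gene, from 31.7%, 32.1% and 33.4% to 15.2% and 15.4%. The share in Rora, a nuclear receptor, went the other way, from 26.7%, 27.7% and 28.0% to 58.2% and 49.2% (1.62 ± 0.15, limma adjusted p = 0.000545), and so did that in Lama5, a laminin chain, from 27.3%, 26.2% and 30.3% to 45.1% and 51.9%. These exceptions had groups that did not overlap either. Cdkn1a, the p53-induced cell cycle inhibitor, lost tags downstream of its midpoint from 52.5%, 50.7% and 53.9% to 16.7% and 14%. The number of transcripts called in either direction, 1283, was 839 when mESC 1FA replicate 2 was left out and 798 when replicate 3 of the same group was.

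Exonic tags gained on intronic tags in 1326 of 2442 transcripts (54.3%) and lost in 35 (1.43%), together 55.7%, as log2 of the ratio of exonic to intronic tags. The median change was 0.69 in genes of 10 to 50 kb, 0.95 in genes of 50 to 200 kb and 1.02 in genes over 200 kb, while 6 of 35 genes under 10 kb rose and 5 fell. In genes of 50 to 200 kb the median exonic share went from 10.9% to 18.9%, and in genes over 200 kb from 5.02% to 9.09%. Dync1h1, the heavy chain of cytoplasmic dynein, had 42.8%, 26.4% and 29.1% exonic tags in mESC 1FA and 72.4% and 75.3% in mESC ActD4 (2.55 ± 0.33, limma adjusted p = 0.00196). Sfswap, a splicing regulator, went from 18.3%, 12.9% and 12% to 50.5% and 45.4% (2.48 ± 0.27, limma adjusted p = 0.00142). Pcsk6, a proprotein convertase, went from 3.85%, 3.59% and 3.41% to 12.5% and 15.2%. In each of them both treated libraries lay above all untreated ones. The Polycomb cofactor Jarid2 went from 7.04%, 4.60% and 4.71% to 13.5% and 13.9%, the maintenance methyltransferase Dnmt1 from 24.6%, 15.2% and 17.2% to 46.7% and 39.5%, and Tet1 from 20.5%, 21.8% and 20.9% to 38.0% and 36.6%, and 9 of 14 genes of that list rose with none falling. The calls depended on the number of tags, since after thinning each transcript to the same number in every library none of 2380 was called by limma, with 804 at an unadjusted p under 0.05 and a median change of 0.84. The number called in either direction, 1361, was 900 when mESC 1FA replicate 2 was left out and 835 when replicate 3 of the same group was.

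The level of a transcript among all interactions went with the length of its gene. Of 1013 protein-coding genes under 10 kb 489 rose and 224 fell, with a median of 0.84. Of 4724 genes of 10 to 50 kb 960 rose and 1532 fell (median -0.14), of 2843 genes of 50 to 200 kb 291 rose and 1463 fell (-0.51), and of 677 genes over 200 kb 51 rose and 495 fell (-1.50). Of these, 204, 814, 518 and 242 genes in the same order were at 0 in both treated libraries and were tested only because of mESC 1FA, so their direction was fixed. Among pairs listed in both groups the order was the same and the medians were closer together, at 0.62 for the shortest and -0.36 for the longest genes (10 rose and 160 fell of 398). At equal pooled numbers the medians were 1.98 for the shortest and -0.56 for the longest genes. Genes under 10 kb supplied 1.63% ± 0.0997 (SD, n = 3) of the protein-coding interactions in mESC 1FA and 3.58% ± 0.0472 (SD, n = 2) in mESC ActD4, and genes over 200 kb 26.9% ± 0.462 and 24.3% ± 0.0795. Of 192 listed genes over 500 kb 121 were at 0 in mESC ActD4. In pairs listed in both groups 34 of 58 fell and 1 rose (median -0.46), where 13.1% of all transcripts fell and 9.28% rose.

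**Figure D3:**
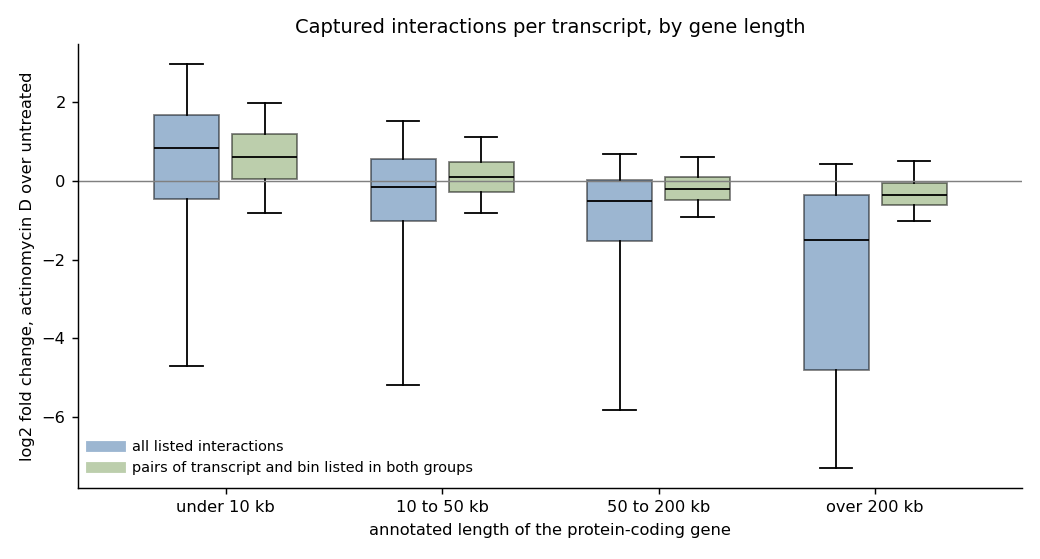
Log2 change of transcript level, mESC ActD4 against mESC 1FA, by length of the protein-coding gene. Boxes are quartiles and whiskers the 5th to 95th percentile over genes, for all interactions and for pairs listed in both groups only. The medians go down from 0.84 in genes under 10 kb to -1.50 in genes over 200 kb, and from 0.62 to -0.36 in the shared pairs.

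The largest falls among well captured transcripts lay in long genes whose pairs were mostly not listed after treatment. Gtdc1, a glycosyltransferase-like gene, had 554, 431 and 687 interactions in mESC 1FA and 6 and 2 in mESC ActD4 (-4.35 ± 0.27, limma adjusted p = 4.63e-06). Mbd5, a methyl-CpG-binding domain gene, had 441, 376 and 517 and then 4 and 4 (-3.84 ± 0.25), and in the pairs listed in both groups its change was 0.07 and not called (limma adjusted p = 0.945). Cop1, a ubiquitin ligase, had 411, 384 and 590 and then 4 and 4, and its fall was also called in the shared pairs (-1.25, limma adjusted p = 0.0193). Wwox, an oxidoreductase gene at a fragile site, was far better captured, at 7622, 6330 and 6579 CPM and then 1669 and 1683 CPM (-2.03 ± 0.10, limma adjusted p = 1.44e-06). Rfx3, a transcription factor of ciliogenesis, had 433, 372 and 465 interactions in mESC 1FA and was listed at 0 in both mESC ActD4 libraries, and so was Prex2, a Rac exchange factor, after 420, 338 and 500. No fold change is given for them, since a pair below the threshold of the authors is not listed and a listed 0 has no known limit.

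**Figure D4:**
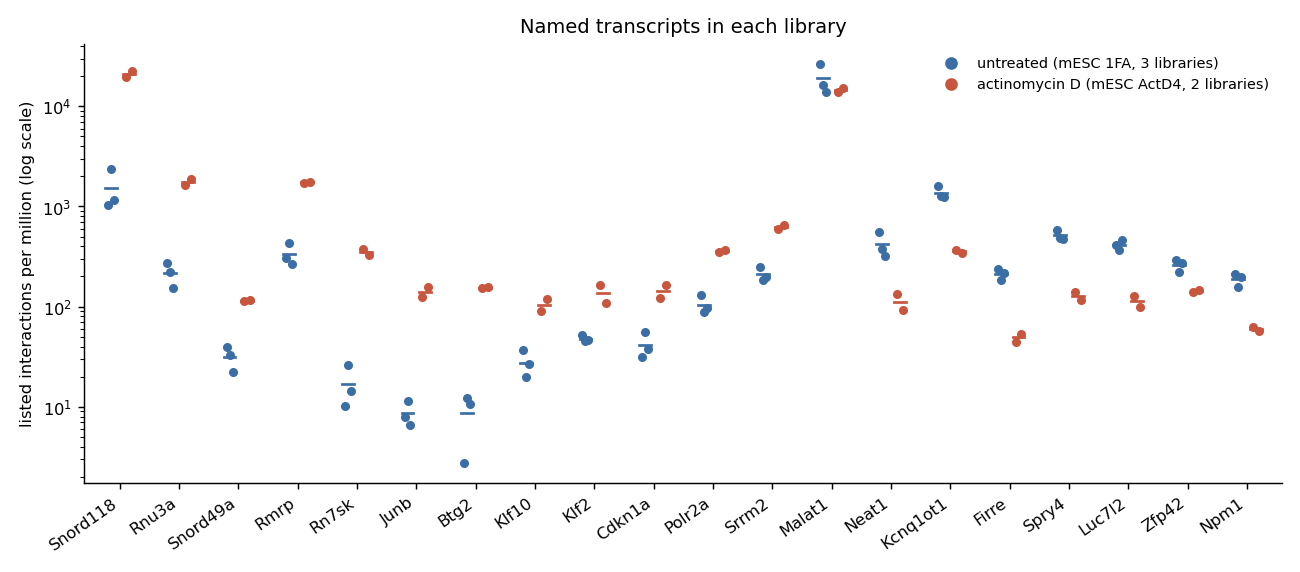
Level of 20 transcripts in each library, in CPM on a log axis. Points are libraries of mESC 1FA and mESC ActD4. Small RNAs from Snord118 to Rn7sk and short response genes such as Junb lie higher in both mESC ActD4 libraries, Malat1 overlaps, and Neat1, Kcnq1ot1, Firre, Spry4 and Luc7l2 lie lower.

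Polr2a went from 130, 87.9 and 96.0 CPM to 350 and 369 CPM (1.80 ± 0.18, limma adjusted p = 8.42e-05), and Ell from 156, 195 and 153 CPM to 406 and 473 CPM (1.39 ± 0.15). The nuclear exonuclease of termination, Xrn2, fell from 200, 180 and 230 CPM to 98.7 and 38.4 CPM, by 1.71 on the log2 scale, and this was -2.39 without mESC ActD4 replicate 1 and -1.03 without mESC ActD4 replicate 2. Of 33 genes of elongation and termination tested 18 rose and 8 fell, with a median of 0.58, against 19.4% and 41.4% of all transcripts, while in pairs listed in both groups 7 of 29 rose and 6 fell (median 0.14). Among 52 splicing regulators 16 rose and 15 fell (median -0.07), and 7 and 19 in the shared pairs. Of all transcripts 9.28% rose and 13.1% fell in those pairs. At 0 in both treated libraries, and thus able only to fall, were 2 of the 33 and 0 of the 52 genes, against 2082 of 9896 transcripts. The speckle scaffold Srrm2 rose from 250, 185 and 197 CPM to 597 and 657 CPM (1.58 ± 0.15), and the U1-associated Luc7l2 fell from 413, 364 and 463 CPM to 128 and 99.9 CPM (-1.86 ± 0.16, limma adjusted p = 2.78e-05). The endocytic receptor Lrp1 and the ubiquitin ligase subunit Wsb1 were among the largest rises of well captured genes. Lrp1 went from 77.0, 77.6 and 69.5 CPM to 256 and 323 CPM without a gain at its start (3.57%, 3.19% and 2.12% of tags, then 2.63% and 2.38%, limma adjusted p = 0.860), while its exonic share went from 31.1%, 29.8% and 24.3% to 52.6% and 57.1%. Wsb1 went from 54.6, 47.1 and 57.0 CPM to 175 and 211 CPM and its start share from 38.1%, 29.8% and 28.4% to 67.9% and 69.1%.

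Of 22 immediate early and short-lived mRNA genes 14 rose and 4 fell, with a median of 1.11, against 19.4% and 41.4% of all transcripts. No tested member was at 0 in both treated libraries, unlike 2082 of the 9896 transcripts, which could only fall. Of the 29 members listed at all, 6 were at 0 in mESC ActD4. Of 1013 protein-coding genes under 10 kb 489 rose and 224 fell (median 0.84), and the list was not matched by gene length. In the pairs listed in both groups 7 of 21 rose and 3 fell, against 9.28% and 13.1% of all transcripts. The summed share of the list was 0.162% to 0.170% of the interactions in mESC 1FA and 0.158% and 0.160% in mESC ActD4, and its 2 most captured members, Etv5 and Spry4, fell. Junb, a subunit of the AP-1 factor, had 20, 28 and 18 interactions in mESC 1FA and 56 and 41 in the smaller mESC ActD4 libraries, or 7.85, 11.6 and 6.62 CPM against 126 and 158 CPM (4.01 ± 0.29, limma adjusted p = 1.25e-05). Jun had 1, 4 and 4 interactions and then 25 and 13 (5.32 ± 0.48). It passed the filter of 10 interactions in 2 libraries only through mESC ActD4, where it was high, so it could hardly be tested as a fall. Btg2, an antiproliferative gene, had 7, 30 and 29 and then 68 and 41 (4.37 ± 0.59, limma adjusted p = 0.000471), and its change was 3.71 without mESC 1FA replicate 1. Both treated libraries held more interactions of these 3 genes than any untreated library, before any scaling. Of the same list Spry4, an inhibitor of FGF signalling, fell from 580, 487 and 474 CPM to 141 and 115 CPM (-2.001 ± 0.14, limma adjusted p = 9.87e-06) and the ETS factor gene Etv5 from 796, 752 and 770 CPM to 363 and 350 CPM (-1.12 ± 0.09). Etv4 was not called (49.9, 54.9 and 47.4 CPM, then 38.1 and 38.4 CPM, limma adjusted p = 0.0841), nor was Egr1 (22.8, 69.0 and 58.8 CPM, then 24.7 and 23.1 CPM, limma adjusted p = 0.119).

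Among 20 p53 target genes 6 rose and 1 fell (median 0.25), where 19.4% and 41.4% of all transcripts did, and 3 of 17 rose and 0 fell by limma in the shared pairs, where 9.28% and 13.1% did. No tested member of this list was at 0 in both treated libraries, unlike 2082 of the 9896 transcripts, which could only fall. Of the 24 members listed at all, 2 were at 0 in mESC ActD4. Cdkn1a rose from 31.4, 55.3 and 37.5 CPM to 121 and 165 CPM (1.81 ± 0.27, limma adjusted p = 0.000851), a call that was not made when the mESC 1FA list was thinned to equal pooled numbers (limma adjusted p = 0.0644). The stress gene Ddit4 had 9, 9 and 10 interactions and then 19 and 7, or 3.53, 3.72 and 3.68 CPM against 42.6 and 26.9 CPM (3.12 ± 0.31, limma adjusted p = 7.86e-05), and Sesn1 fell from 61.3, 68.1 and 76.5 CPM to 40.4 and 34.6 CPM. Ddit4 passed the filter only with the help of mESC ActD4 replicate 1.

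Of 23 pluripotency regulators 5 rose and 9 fell, with a median of 0.12, shares near the 19.4% and 41.4% of all transcripts. In the shared pairs 1 of 22 rose and 6 fell, against 9.28% and 13.1% of all transcripts. The core factors Pou5f1 and Nanog, with 2 to 26 interactions per library, were not called (0.40 ± 0.42 and 0.57 ± 0.27, limma adjusted p = 0.431 and 0.110). Klf2 rose from 51.8, 45.0 and 46.7 CPM to 164 and 108 CPM (1.47 ± 0.21), though not in the shared pairs (0.46, limma adjusted p = 0.116), and Mycn rose from 13.0, 16.1 and 15.4 CPM to 38.1 and 30.7 CPM. Klf5 fell from 168, 208 and 204 CPM to 85.2 and 69.2 CPM (-1.32 ± 0.16), Zfp42 from 293, 219 and 273 CPM to 139 and 146 CPM (-0.86 ± 0.15, though not called without own-gene contacts) and Esrrb, at 2042, 1727 and 1609 CPM the best captured of the list, to 1115 and 1172 CPM (-0.64 ± 0.11). Among 20 Polycomb and DNA methylation genes 5 rose and 6 fell (median -0.26). In the shared pairs 0 of 19 rose and 6 fell by limma, where 9.28% and 13.1% of all transcripts did. Of the genes tested, 1 in this list and 1 in that of the pluripotency regulators were at 0 in both treated libraries. Of the genes listed at all, 1 of 21 in this list and 6 of 28 pluripotency regulators were at 0 in mESC ActD4. Jarid2 fell from 5376, 5572 and 6088 CPM to 2717 and 2731 CPM (-1.06 ± 0.08, limma adjusted p = 1.63e-05), and Eed, a core subunit of the complex, from 147, 135 and 169 CPM to 71.8 and 84.5 CPM (not called at equal pooled numbers, limma adjusted p = 0.0666), whereas Dnmt1 rose from 265, 258 and 212 CPM to 437 and 419 CPM. The rise of Dnmt1 was not called in the shared pairs (0.12, limma adjusted p = 0.565).

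Of 23 nuclear long noncoding RNAs tested 16 fell and none rose by limma, with a median of -1.39, and in the shared pairs 9 of 18 fell and 1 rose. Over all transcripts 41.4% fell and 13.1% in the shared pairs, and 5 of the 23 were at 0 in mESC ActD4. Long noncoding RNAs as a class fell at a like rate, in 323 of 468 (43 rose), with a lower median of -3.74. In the shared pairs 32 of 177 of that class fell and 16 rose, with a median of -0.11. How many of the 468 were at 0 in mESC ActD4, and so could only fall, was not counted. Kcnq1ot1, the imprinted antisense RNA that silences its neighbours, fell from 1608, 1272 and 1234 CPM to 370 and 342 CPM (-1.94 ± 0.13, limma adjusted p = 7.86e-06). Neat1, the scaffold of paraspeckles, fell from 551, 379 and 322 CPM to 132 and 92.2 CPM (-1.88 ± 0.25), and Firre, which contacts several chromosomes, from 239, 183 and 216 CPM to 44.9 and 53.8 CPM (-2.10 ± 0.16). Malat1, the neighbour of Neat1, was at 26486, 16465 and 14023 CPM and then at 13964 and 15328 CPM and was not called (-0.32 ± 0.24, limma adjusted p = 0.281). In the pairs listed in both groups it was called as higher (0.97, limma adjusted p = 0.00141), and against the 2% formaldehyde libraries as well (0.91), whereas with the replicate block it was called as lower (-0.51, limma adjusted p = 0.0121), so its direction is not settled. The fall of Firre was not called in the shared pairs (-0.62, limma adjusted p = 0.0597).

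Host genes of snoRNAs, histone, ribosomal protein and housekeeping genes were counted beside 19.4% higher and 41.4% lower over all transcripts, and 9.28% and 13.1% in the shared pairs. Of 7 host genes of snoRNAs 1 rose and 5 fell, with a median of -1.27, and in pairs listed in both groups 1 of 5 rose and 1 fell. Of the 7, 2 were at 0 in both treated libraries and could only fall. At equal pooled numbers the median of the 3 host genes tested was 0.58. Snhg17 fell from 97.4, 108 and 112 CPM to 38.1 and 34.6 CPM (-1.53 ± 0.16), Gas5 had 62, 59 and 98 interactions and was listed at 0 in both treated libraries, and Snhg12 rose from 5.89, 11.6 and 11 CPM to 56.1 and 57.6 CPM (2.60 ± 0.34), which was not called at equal pooled numbers (2.54, limma adjusted p = 0.112). Of 17 replication-dependent histone genes listed 16 were at 0 in mESC ActD4, and the 1 that was tested in the shared pairs was not called (-0.23). Of 71 ribosomal protein genes 17 rose and 23 fell (median -0.31), against 2 and 13 of 54 in the shared pairs. Of the 71, 12 were at 0 in both treated libraries and could only fall. Rps18 went from 43.2, 61.5 and 49.3 CPM to 83.0 and 111 CPM and Rpl26 from 63.2, 71 and 78 CPM to 20.2 and 26.9 CPM. Of 30 housekeeping genes 13 rose and 9 fell (median 0.16), against 4 and 7 of 26 in the shared pairs. Of the 30, 3 were at 0 in both treated libraries and could only fall. The elongation factor Eef2 rose from 33, 50.0 and 44.1 CPM to 139 and 165 CPM (1.85 ± 0.21), while the nucleolar protein Npm1 fell from 214, 159 and 198 CPM to 62.8 and 57.6 CPM (-1.64 ± 0.16, limma adjusted p = 8.29e-05). The rise of Eef2 was not called at equal pooled numbers (2.03, limma adjusted p = 0.116).

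**Figure D5:**
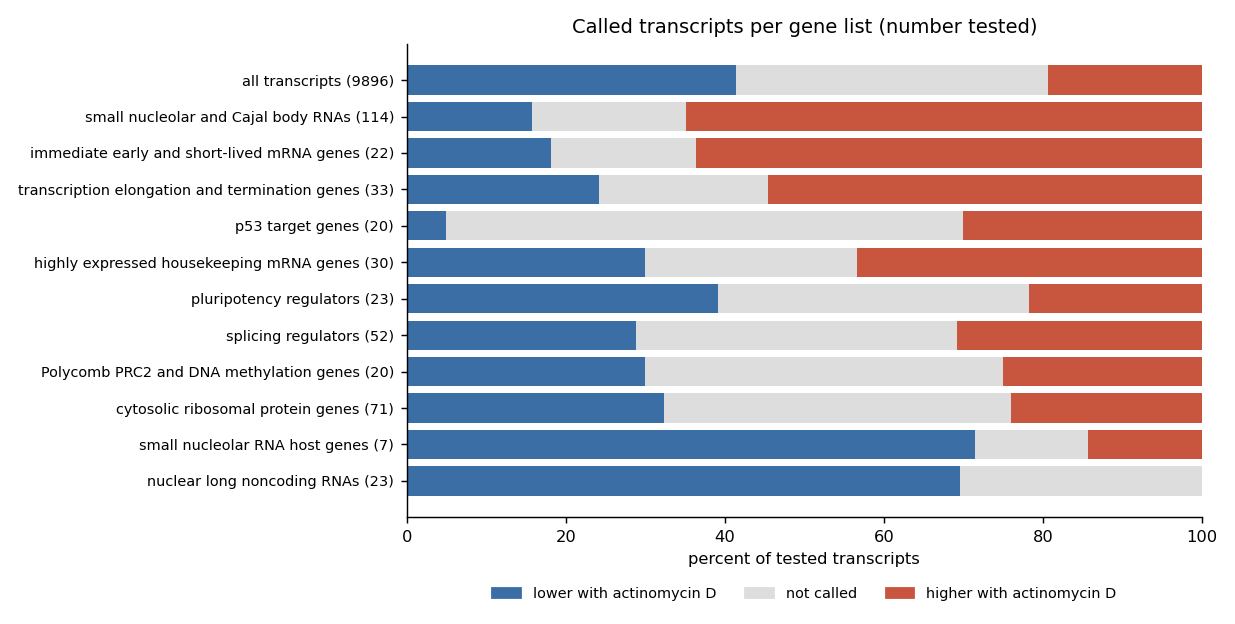
Percent of the tested members of each gene list (lists with most members at 0 in mESC ActD4 left out) that were called lower, not called or called higher in mESC ActD4 (limma adjusted p under 0.05), with all transcripts in the first bar (41.4% lower and 19.4% higher). The snoRNA list has 74 of 114 members higher, and the nuclear long noncoding RNAs have 16 of 23 lower and none higher. Of all long noncoding RNAs tested, which are not plotted, 323 of 468 were lower.

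Of all interactions 31.2% ± 1.18 (SD, n = 3) lay within the transcript's own gene in mESC 1FA and 55.1% ± 0.841 (SD, n = 2) in mESC ActD4, while at equal pooled numbers the shares were 53.03% and 55.1%. Tags under 1 kb apart made up 4.54% ± 0.884 and 14.1% ± 0.821 of the interactions, and those between 100 kb and 1 Mb apart 39.9% ± 1.40 and 22.9% ± 0.0575. These differences did not hold in the pairs listed in both groups, where the own-gene share was 59.6% and 57.0% and the share beyond 100 kb 25.8% and 25%, with the exception of contacts under 1 kb, at 7.80% and 14.5%. At equal pooled numbers the share beyond 100 kb was 33% and 24.7% and that between 100 kb and 1 Mb 29.9% and 22.9%. Among contacts with the own gene, the DNA tag lay within 2 kb after the gene start in 2.39%, 2.64% and 2.22% and then in 6.09% and 6.23%. For RNA tags from the first 2 kb these contacts made up 15.5% ± 3.03 and 31.7% ± 0.113, and for RNA tags further along the gene 1.75% ± 0.115 and 2.24% ± 0.0909.

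With the CPM of a bin taken as its interactions with all RNAs relative to the library total, 31264 of 48189 DNA bins tested were called (64.9%), 4629 as higher (9.61%) and 26635 as lower (55.3%). Of the bins tested 23274 were at 0 in both treated libraries and entered through mESC 1FA alone. Bins with a protein-coding gene start received 31.2% ± 0.998 (SD, n = 3) of the interactions in mESC 1FA and 39.96% ± 0.0608 (SD, n = 2) in mESC ActD4. Bins with neither start nor body of a protein-coding gene received 18% ± 0.480 and 7.85% ± 0.0854. Bins were not counted in shared pairs or at equal pooled numbers. The share of DNA tags in any annotated gene was 72.0% and 83.9% over all interactions. It was 82.1% and 84.0% in shared pairs and 78.3% and 83.9% at equal pooled numbers. Among the 1112 called bins with a mean of at least 100 interactions and none at 0, the largest rise was in chr17:24875001-24900000, which holds Nme3 and Eme2, at 61.1, 62.3 and 48.7 CPM and then 267 and 286 CPM. The bin of Junb and Hook2 at chr8:84975001-85000000 received 80.2, 81.1 and 60.0 CPM and then 294 and 342 CPM, and 23.9% of its interactions after treatment came from Junb RNA itself. The bin with the downstream end of Zfp42 at chr8:43275001-43300000 fell from 99.0, 81.9 and 92.8 CPM to 43.0 and 27.8 CPM, and the level of its transcript also fell. The bin with the downstream end of Ncl at chr1:86325001-86350000 fell from 76.5, 86.8 and 89.3 CPM to 35.8 and 27.8 CPM. The level of the Ncl transcript was not called (-0.14 ± 0.10, limma adjusted p = 0.280), but it was called as lower in pairs listed in both groups (-1.01, limma adjusted p = 9.24e-05) and at equal pooled numbers (-0.59, limma adjusted p = 0.0318) and as higher with each pair counted once (1.55).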

How the data were processed

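RADICL-seq libraries of R08 stem cells were compared, 3 of mESC 1FA against 2 of mESC ActD4. The authors took out ribosomal reads and PCR copies, mapped the tags of each kind to mm10 with BWA 0.7.15-r1140 after base calling with CASAVA 1.8, per the submitters' processing notes, assigned RNA tags to GENCODE M14 by strand, and deposited the positions of interactions of significant pairs together with p-values from a one-sided binomial test on pooled replicates. Thus 1 list of pairs serves all replicates of a group, and the spread between them leaves out the calling of pairs. The deposited files hold no counts, so interactions were counted here per transcript, gene part and 25-kb bin from the deposited positions, and repeated lines of 1 interaction were merged. Gene names and positions are from GENCODE M21 on the same build, which matched 99.8% of 15304 Ensembl identifiers.

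Counts were scaled by trimmed means (TMM, computed here) to log2 CPM with a prior count of 0.5 and compared in R 4.3.3 by the two-sided moderated test of limma 3.58.1, whose variance prior followed the mean level, with Benjamini-Hochberg adjustment over all features and a threshold of 0.05. Features needed a count of at least 10 in 2 libraries and 15 in all. Balances are log2 ratios of 2 tag numbers with 0.5 added to each, for transcripts with at least 20 tags in every library and 5 on each side in all. The balance of the first 2 kb was added after the data had been seen, for genes of at least 10 kb. No count model was fitted, because the deposited units are positions and p-values. The fits were tested on simulated data. Shares were compared by an exact two-sided permutation test over libraries.

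The members and gene lists were chosen with earlier results of these data known. The text names the 10 largest rises and falls of level among called transcripts with a mean of 100 interactions, the 5 most captured of those listed at 0 in mESC ActD4, the 10 most captured of each group, the 5 largest changes of each balance and of DNA bins, and up to 4 members of each list, or some of these, and some items the rule selects are not reported here. Junb, Btg2, Jun, Cdkn1a, Ddit4, Srrm2, Luc7l2, Ell, Supt6, Xrn2, Eef2, Klf2, Klf5, Mycn, Eed, Dnmt1, Neat1, Firre, Snord49a, Scarna2 and Snhg12, and the balances of list members other than those largest changes, were named after their values were seen. Alternatives were other scaling, filters, weights, pair lists, tag windows and untreated libraries, and leaving out each library.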

Additional observations from a re-analysis of the deposited data

How the results depend on the processing

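Of 2639 alternatives for the 178 named results 2356 kept the side of the threshold, 204 lost the call, 51 gained it and 28 reversed. For these named results a change of sign was counted as reversed only where the result or its alternative was called. The 2356 thus include changes of sign between uncalled values, such as Malat1 at equal pooled numbers (0.97, limma adjusted p = 0.0581). The numbers called were 10218 transcripts without a low-count filter, 1599 in pairs listed in both groups and 1232 at equal pooled numbers, and 48352 DNA bins without a filter. For the exon balance they were 754 at a minimum of 50 tags, 11 at equal pooled numbers, 0 at equal numbers per transcript and 869 with precision weights. For the midpoint balance they were 601 at a minimum of 50, 163 at equal pooled numbers, 400 at equal numbers per transcript and 278 with DNA tags at least 100 kb away. For the start balance they were 2907 and 821 at minima of 10 and 50, 143 at equal pooled numbers, 709 at equal numbers per transcript, 1241 with intronic tags and 479 with DNA tags at least 100 kb away. The cause was not tested, except that fewer tags were counted under the thinned and restricted settings.

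Differences in shares, in percentage points, moved as follows. Without the 10 most captured transcripts they were -9.48 (intronic), -0.232 (protein-coding), 0.960 (small noncoding), 26.5 (own gene) and -3.73 (downstream of the midpoint in genes over 200 kb). At equal pooled numbers they were -13.1, -5.42, 4.95, 2.08 and -2.96 in the same order, 0.460 for long noncoding RNA, which reversed, and -8.32 beyond 100 kb. In pairs listed in both groups long noncoding RNA (0.541) and the own gene (-2.62) reversed, and the values were -0.797 beyond 100 kb and -3.08 downstream of the midpoint.

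Levels that reversed in pairs listed in both groups were those of Mbd5 (0.068), Malat1 (0.97), Ankrd11 (-0.12), Eef1g (-0.19), Mcl1 (-0.063), Rbfox2 (-0.29) and Cdk12 (-0.19), and at equal pooled numbers those of Mcl1 (-0.080), Rbfox2 (-0.27) and Cdk12 (-0.044). With each pair counted once they were Malat1 (0.062), Exoc4 (0.18), Ncl (1.55), Tfcp2l1 (0.10), Sall4 (-0.16), Lncenc1 (0.47), Zmat3 (-0.25), Snhg3 (0.072), Celf1 (0.77) and Cdc73 (0.0016). Ncl (0.78) and Celf1 (0.33) also reversed without own-gene contacts, Malat1 (0.91) against 2% formaldehyde, and mt-Tv without mESC ActD4 replicate 2 (1.94; -4.24 without replicate 1). The midpoint balance reversed for Pde4d (-0.31) and Zfhx3 (-0.96) with DNA tags at least 100 kb away and in shared pairs (-0.30 and -1.63).

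Leaving out 1 library at a time gave 4768 to 6410 transcripts, 835 to 1473 exon, 798 to 1589 midpoint and 1704 to 1865 start calls, and 27794 to 36245 bins. The shares then differed by -11.1 to -10.1 (intronic), -3.02 to -2.34 (protein-coding), -1.25 to -0.662 (long noncoding), 3.16 to 4.14 (small noncoding), 23.3 to 24.5 (own gene), -27.3 to -25.4 (beyond 100 kb) and -2.63 to -2.44 (downstream of the midpoint). With the replicate number as a block, the calls were 5160 transcripts, 929 exon, 865 midpoint and 1645 start balances and 28270 bins; only numbers 1 and 2 occur in both groups, and nothing pairs the samples. Depth differed between the groups, and values at few interactions, as in mESC ActD4, are less precise.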

Other observations

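Base composition was described because the longer classes varied most. Across protein-coding genes, which are not independent replicates and share libraries and depth, Spearman's rho between the GC content of the gene and its log2 change of level was 0.03 for 1013 genes under 10 kb, 0.13 for 4724 genes of 10 to 50 kb, 0.32 for 2843 genes of 50 to 200 kb and 0.37 for 677 genes over 200 kb. In the longest class the 51 genes that rose had a median GC content of 46.1% and the 495 that fell 41.7%. Their median level in mESC 1FA also differed, at 672 and 62.8 CPM. The change of the start balance over 2285 genes had a rho of -0.24 with the GC content of the first 2 kb and of -0.16 with gene length. The part of GC content in the results was not tested.

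Primitive endoderm genes differed between untreated libraries. Gata4 had 108, 333 and 425 interactions in the 3 mESC 1FA libraries and 27 and 16 in mESC ActD4, and Gata6 had 20, 106 and 105 and was listed at 0 in both treated libraries. The fewest interactions of both were in mESC 1FA replicate 1 of the untreated libraries.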
